A study of Mus musculus with 11 samples.

Results

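The genes described here are 9 retinoid handling genes, listed by name for their place in vitamin A metabolism. No measured value entered that rule, but the list was drawn up with earlier results of these data known. They are Stra6, Lrat, Rdh10, Dhrs9, Aldh1a1, Aldh1a2, Aldh1a3, Crabp2 and Cyp26b1. All 9 are among the 52550 genes of the count table, and 6 of them were among the 14419 genes abundant enough to be tested. Stra6, Lrat and Aldh1a2 were not.

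Retinoids are made from vitamin A. STRA6 brings retinol into cells and LRAT stores it as retinyl esters. RDH10 and DHRS9 oxidise retinol to retinaldehyde, and the ALDH1A enzymes turn retinaldehyde into retinoic acid. CRABP2 carries retinoic acid to its nuclear receptors, and CYP26B1 degrades it. In the epidermis, retinoic acid is known to influence how keratinocytes grow and differentiate.

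The mRNA of sorted epidermal cells was sequenced to ask what the lack of Langerhans cells (LCs), the antigen presenting cells of the epidermis, does to the cells around them. Keratinocytes (KCs) and dendritic epidermal T cells (DETCs, the gamma delta T cells of mouse epidermis) were sorted from flank skin of 8-week-old female mice. LC-/- mice were huLangerin-DTA animals, in which diphtheria toxin subunit A is expressed from human langerin sequences, so that LCs are missing from birth. WT controls were littermates. KCs were sorted as live cells negative for MHC-II, CD45, langerin and c-kit, and DETCs as the CD45+ counterpart of that gate. There were 3 WT and 3 LC-/- KC libraries, and 3 WT and 2 LC-/- DETC libraries. They are named here W1 to W3 for WT and L1 to L3 for LC-/-, and a name shared by a KC and a DETC library marks a shared number in the sample titles, which the labels do not explain. L1 has no DETC library here. P-values measure the spread between these few libraries. Where KCs and DETCs are compared, libraries that share a number were treated as independent.

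Libraries held between 13491075 and 19750440 reads on genes. Each sort was led by the markers of its labelled cell type, and DETC libraries also held keratinocyte transcripts. The summed normalized count of 24 keratinocyte marker genes was 730113 to 800989 in KC libraries and 126427 to 220079 in DETC libraries, whereas that of 15 DETC genes was 267816 to 295745 in DETC libraries and 351 to 672 in KC libraries. Per marker gene, the median keratinocyte transcript in a DETC library stood at 15.8% to 27.0% of its KC level, and the highest value belonged to L2. Cd207, which encodes langerin, had 0 reads in all 3 LC-/- KC libraries and in DETC library L2, 4 reads in DETC library L3, and 6 to 48 reads in each WT library.

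Values below are normalized counts, that is reads divided by the library's size factor, and 1 read is worth about 1 normalized count. Differences are log2 differences from limma on log2(normalized count + 1), and a gene was called at a Benjamini-Hochberg adjusted p under 0.05 over all 14419 genes. This scale understates the change of low genes. In bulk samples, fewer cells of a type and less RNA per cell cannot be told apart.

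Among the retinoid handling genes, KCs held mainly the binding protein and the degrading enzyme. Per length, in reads per kilobase of exon scaled to the library's total (RPKM), Crabp2 stood at 12.5 ± 3.31 (SD, n = 3) and Cyp26b1 at 7.01 ± 0.382 (SD, n = 3) in WT KCs. Rdh10 followed at 2.43 ± 0.253 RPKM, Aldh1a1 at 0.968 ± 0.187 and Dhrs9 at 0.522 ± 0.212. The other members were below 0.1 RPKM. Each of these neighbours differed by more than the SD of either, whereas Stra6, Aldh1a3, Aldh1a2 and Lrat could not be ordered at a few reads per library.

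In WT DETC libraries, which also held keratinocyte transcripts, the order differed. These are levels of the libraries, and the part that came from keratinocyte transcripts was not tested. Rdh10 at 2.72 ± 0.417 RPKM (SD, n = 3) and Crabp2 at 2.55 ± 0.855 did not differ beyond their spread, and Cyp26b1 followed at 1.38 ± 0.115. Aldh1a3, at 0.320 ± 0.0960 RPKM, ranked above Aldh1a1 at 0.192 ± 0.0634 and Dhrs9 at 0.149 ± 0.0348, which did not differ from each other beyond their spread. In KCs Aldh1a3 stood below both. Stra6, Lrat and Aldh1a2 again lay at the bottom.

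The loss of LCs left none of the 6 tested genes called in KCs, where 7.23% of all tested genes were called (5.37% higher and 1.85% lower). None was called in DETCs either, where 3.56% were called (3.13% higher and 0.43% lower). The median log2 difference of the 6 genes was 0.01 in KCs, against -0.01 for all tested genes, and 0.49 in DETCs, against 0.02. Between WT DETCs and WT KCs, 41% of all tested genes were higher in DETCs and 35.1% lower, and of the 6 members 1 was higher, 4 were lower and Rdh10 was not called. The median of the 6 was -1.75, against 0.07 for all tested genes. Aldh1a3 and Dhrs9 passed the filter on low counts only through the cell type where each was higher. With that filter lifted, limma still called both between WT DETCs and WT KCs (adjusted p = 0.000850 and 0.00698).

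**Figure D1:**
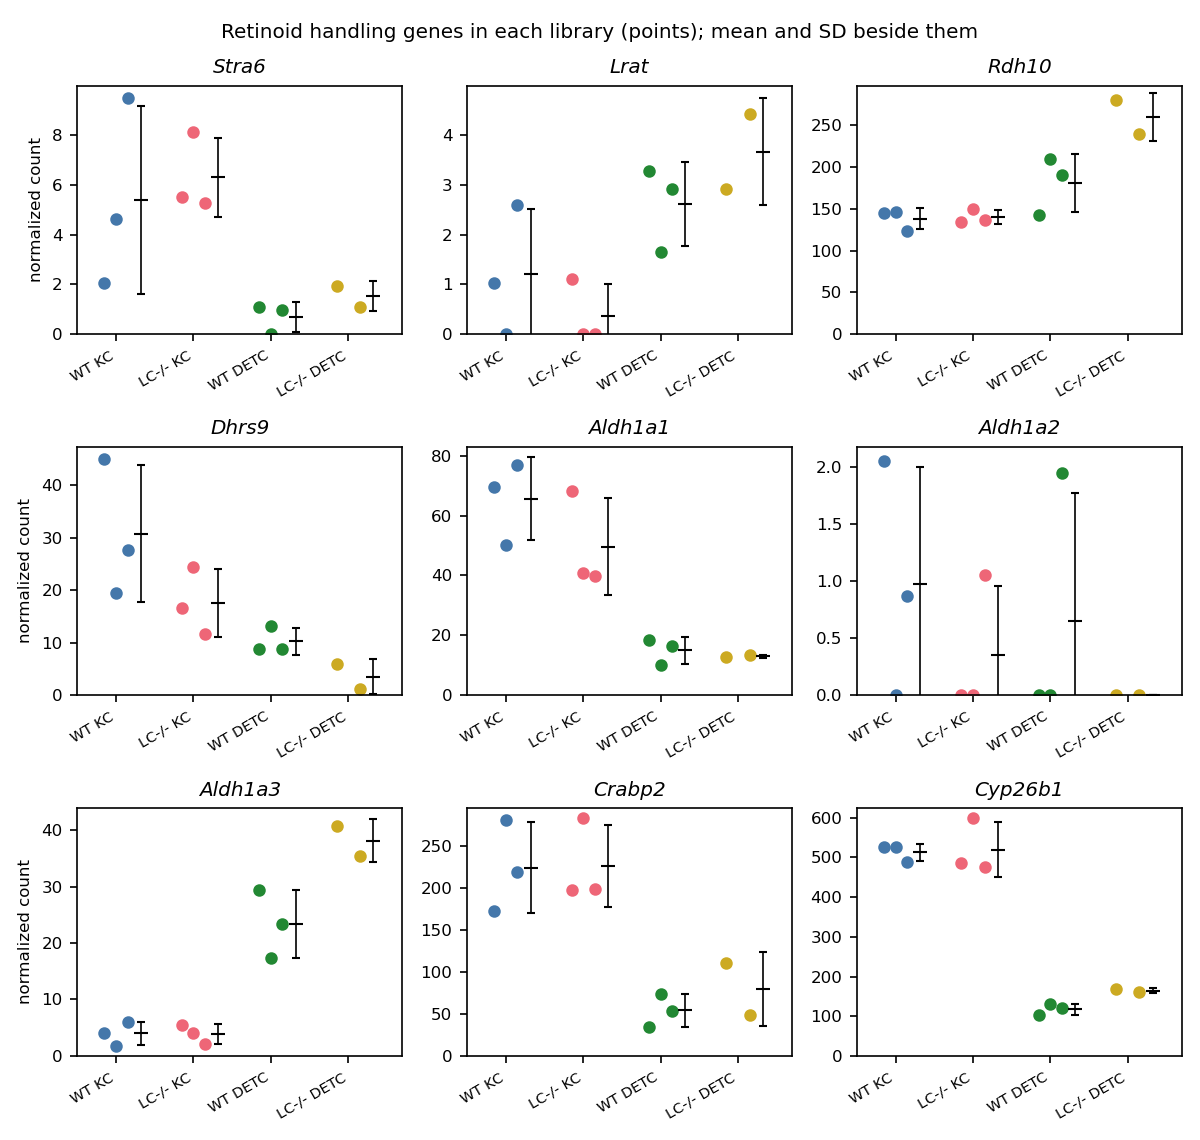
Normalized counts (vertical axes, each from 0) of the 9 retinoid handling genes by group, with 1 point per library and the mean and SD beside the points (n = 3, and 2 for LC-/- DETCs). Crabp2, Cyp26b1 and Aldh1a1 lie lower in all DETC libraries than in all KC libraries and Aldh1a3 lies higher, while WT and LC-/- KC points overlap for all 9 genes.

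Stra6, the retinol receptor, was barely detected. It had 2, 5 and 11 reads in the WT KC libraries W1, W2 and W3, and 5, 8 and 5 in the LC-/- KC libraries L1, L2 and L3. The DETC libraries held 1, 0 and 1 reads in WT and 2 and 1 in LC-/-. All DETC libraries thus lay at or under the lowest KC library. With the filter on low counts lifted, limma gave Stra6 a log2 difference of -1.82 (adjusted p = 0.0190, over 25901 genes) between WT DETCs and WT KCs, and no call for LC-/- against WT in KCs (adjusted p = 0.743) or DETCs (adjusted p = 0.727). The gene shares ground with Ccdc33 on the opposite strand, and the strand setting of the counting is not stated. Antisense or overlapping genes also lie at Lrat, Aldh1a1 and Aldh1a2, and their reads may not be separated.

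Lrat, the esterifying enzyme, had at most 4 reads in any library and 20 in all. WT KCs held 1, 0 and 3 reads and LC-/- KCs 1, 0 and 0. WT DETCs held 3, 2 and 3 and LC-/- DETCs 3 and 4. At this depth, where 3 reads are the limit that a count of 0 allows in a library, no difference was detectable.

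Rdh10 (chr1:16105774-16133734, GRCm38, plus strand), the main retinol dehydrogenase of retinoic acid synthesis, differed least between the cell types among the 6 tested genes. Its normalized counts in KCs were 144.5, 146.5 and 123.6 in WT and 134.4, 149.6 and 136.6 in LC-/- libraries. In DETCs they were 143.0, 209.6 and 190.6 in W1, W2 and W3 and 280.6 and 239.9 in L2 and L3. The KC groups overlapped fully, and both LC-/- DETC libraries lay above every WT DETC library. The difference in KCs was 0.02 (95% interval -0.24 to 0.28, adjusted p = 0.923, limma). In DETCs it was 0.54 (95% interval 0.10 to 0.97), and it did not pass the test (adjusted p = 0.177). Between WT DETCs and WT KCs, Rdh10 differed by 0.37 (adjusted p = 0.0620, limma), and without DETC library W1, the lowest of the WT DETC libraries, by 0.53 (adjusted p = 0.00919). Over the 16 alternatives, edgeR and DESeq2 among them, the difference went as low as 0.09 and the adjusted p as high as 0.634.

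Dhrs9 (chr2:69380445-69404533, plus strand), a short-chain dehydrogenase that acts on retinol, was low and varied widely within groups. It stood at 45.1, 19.5 and 27.7 normalized counts in WT and 16.5, 24.4 and 11.6 in LC-/- KCs. In DETCs the values were 8.73, 13.2 and 8.75 in WT and 5.83 and 1.11 in LC-/- libraries, the last of these being 1 read. The KC groups overlapped, and the LC-/- DETC libraries lay below all WT DETC libraries. Neither difference passed the test, with -0.76 in KCs (95% interval -1.77 to 0.26, adjusted p = 0.296) and -1.54 in DETCs (95% interval -2.98 to -0.11, adjusted p = 0.231, limma). Single libraries moved these values, to -0.45 in KCs without W1 and to -2.39 and -0.69 in DETCs without L2 and L3. Dhrs9 was lower in WT DETCs than in WT KCs by a log2 difference of -1.44 (SE 0.352, adjusted p = 0.00423). Only KC libraries carried it past the filter on low counts. WT DETC libraries held 8 to 16 reads of it.

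The retinaldehyde dehydrogenases divided by cell type. Aldh1a1 (chr19:20492715-20643465, plus strand) stood at 69.7, 50.1 and 76.9 normalized counts in WT KCs and 68.3, 40.7 and 39.9 in LC-/- KCs. In DETCs it stood at 18.6, 9.90 and 16.5 in WT and 12.6 and 13.3 in LC-/- libraries. The genotypes overlapped in both cell types, and every DETC library lay below every KC library. Aldh1a1 was lower in WT DETCs than in WT KCs (log2 difference -2.08, SE 0.293, adjusted p = 0.000128, limma). For LC-/- against WT it differed by -0.42 in KCs (95% interval -1.14 to 0.30, adjusted p = 0.411) and by -0.15 in DETCs (95% interval -1.10 to 0.79, adjusted p = 0.881). Its paralog Aldh1a7 shares 50 of the 2493 stretches of 75 bases, the read length, in Aldh1a1 transcripts (2.01%), so few reads could belong to either.

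Aldh1a3 (chr7:66390890-66427517, minus strand) was the 1 member called higher in DETCs. Only DETC libraries carried it past the filter on low counts. WT KC libraries held 2 to 7 reads of it and LC-/- KC libraries 2 to 5. It had 4.10, 1.86 and 6.05 normalized counts in WT KCs and 5.51, 4.07 and 2.10 in LC-/- KCs. It had 29.5, 17.3 and 23.3 in WT DETCs and 40.8 and 35.4 in LC-/- DETCs. Each DETC library was above all KC libraries, and both LC-/- DETC libraries were above the WT ones. The log2 difference between WT DETCs and WT KCs was 2.35 (SE 0.402, adjusted p = 0.000477, limma). The LC-/- difference was -0.0013 in KCs (95% interval -1.09 to 1.09) and 0.71 in DETCs (95% interval -0.04 to 1.46, adjusted p = 0.288), neither of which passed the test. Aldh1a2, the family member known from embryonic tissues, had 6 reads over the 11 libraries and at most 2 in any.

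Crabp2 (chr3:87948666-87953376, plus strand), which hands retinoic acid to its receptors, had 173.2, 281.0 and 218.7 normalized counts in WT KCs and 197.2, 283.0 and 198.6 in LC-/- KCs. The genotypes covered nearly the same range. In DETCs it had 34.9, 74.3 and 53.5 in WT and 110.7 and 48.6 in LC-/- libraries, and the genotypes overlapped because L2 was the highest DETC library and L3 lay within the WT range. Crabp2 was lower in WT DETCs than in WT KCs by -2.07 (SE 0.277, adjusted p = 8.94e-05, limma). For LC-/- against WT the difference was 0.02 in KCs (95% interval -0.57 to 0.61, adjusted p = 0.988) and 0.50 in DETCs (95% interval -0.47 to 1.46, adjusted p = 0.573). Without L2 the DETC difference was -0.089.

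Cyp26b1 (chr6:84571414-84593908, minus strand) breaks retinoic acid down. WT KC libraries held 525.7, 525.0 and 488.4 normalized counts of it, and LC-/- KC libraries 484.7, 599.6 and 474.9. DETC libraries held 102.6, 130.4 and 120.6 in WT and 168.9 and 160.3 in LC-/- libraries. The KC genotypes overlapped, whereas both LC-/- DETC libraries lay above every WT one. The KC difference of 0.01 had a narrow interval, from -0.25 to 0.27 (adjusted p = 0.975, limma). The DETC difference was 0.49 (95% interval 0.09 to 0.88) and did not pass the test (adjusted p = 0.175). Cyp26b1 was lower in WT DETCs than in WT KCs by -2.12 (SE 0.115, adjusted p = 1.32e-07), which held under all 16 alternatives tried, as did the calls of Dhrs9, Aldh1a1, Aldh1a3 and Crabp2 in this comparison.

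Counted over the 6 tested genes, WT and LC-/- KC libraries overlapped for all 6, while 31.5% of all tested genes did not overlap. In DETCs, with 3 against 2 libraries, 4 of the 6 did not overlap (Rdh10, Aldh1a3 and Cyp26b1 higher in LC-/-, Dhrs9 lower), where 37.9% of all tested genes did not. The test of the difference between the DETC effect and the KC effect called none of the 6, and 0.798% of all genes. Adjusted p-values ranged from 0.335 for Cyp26b1 to 0.893 for Aldh1a1. Cyp26b1 came nearest, with an effect in DETCs that exceeded the effect in KCs by 0.47 (95% interval 0.08 to 0.87).

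**Figure D2:**
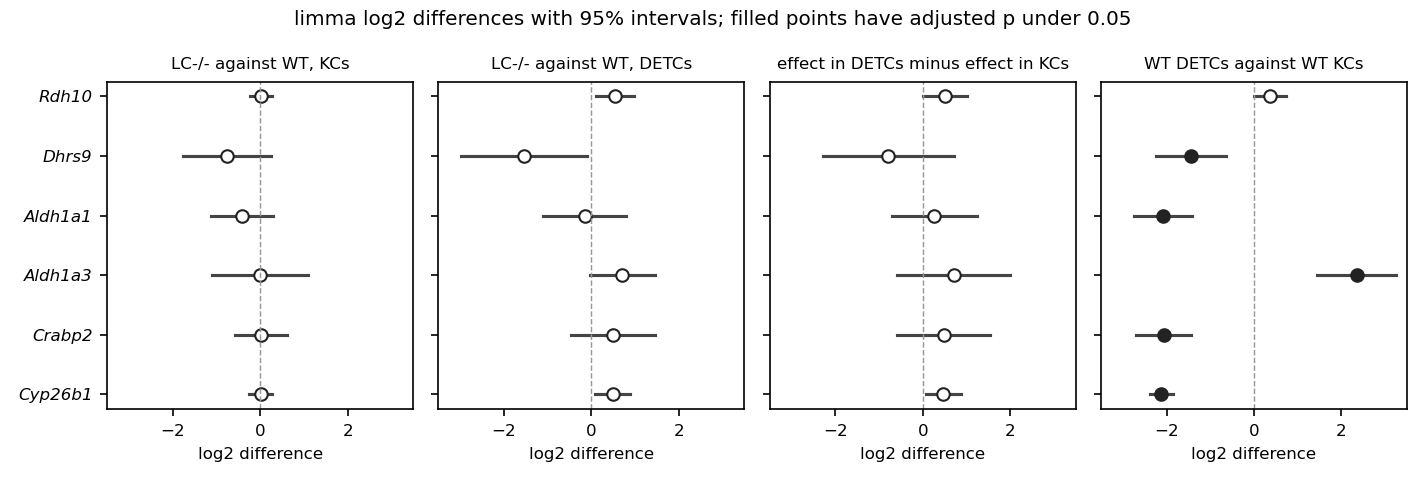
Log2 differences (horizontal axes) from limma with 95% intervals for the 6 tested genes, in 4 comparisons from left to right (LC-/- against WT in KCs, the same in DETCs, the difference of these effects, and WT DETCs against WT KCs). Filled points have an adjusted p under 0.05, and all 5 of them are in the last comparison.

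The DETC levels of the 4 genes that were lower in DETCs were set beside the keratinocyte transcripts measured in the same libraries. If a gene fell with the keratinocyte markers, its DETC value would be 15.8% to 27.0% of its KC value. Cyp26b1 in DETC libraries W1, W2, W3, L2 and L3 stood at 1.25, 1.61, 1.23, 1.21 and 1.83 times the value so given. The ratios for Crabp2 were 0.969, 2.10, 1.25, 1.81 and 1.28, and those for Aldh1a1 1.76, 0.959, 1.32, 0.943 and 1.59. Dhrs9 ranged from 0.375 in L3, which held 1 read, to 2.73 in W2. Cyp26b1 was above the marker median in all 5 DETC libraries, whereas the other 3 genes lay on both sides of it. In L3, Cyp26b1 stood at 30.8% of its KC value, against an upper quartile of 20.3% over the markers. In W1, W2, W3 and L2 it lay between the marker median and the upper quartile, which was 21.0%, 27.3%, 25.8% and 33.8%. Rdh10 stood at 6.44 to 10.2 times the value so given and Aldh1a3 at 27.5 to 53.9 times, and in every DETC library both lay above their KC mean. L2, the DETC library with the highest keratinocyte share, also held the highest Crabp2, Cyp26b1, Rdh10 and Aldh1a3 values, and the part of that share in the genotype differences was not tested.

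**Figure D3:**
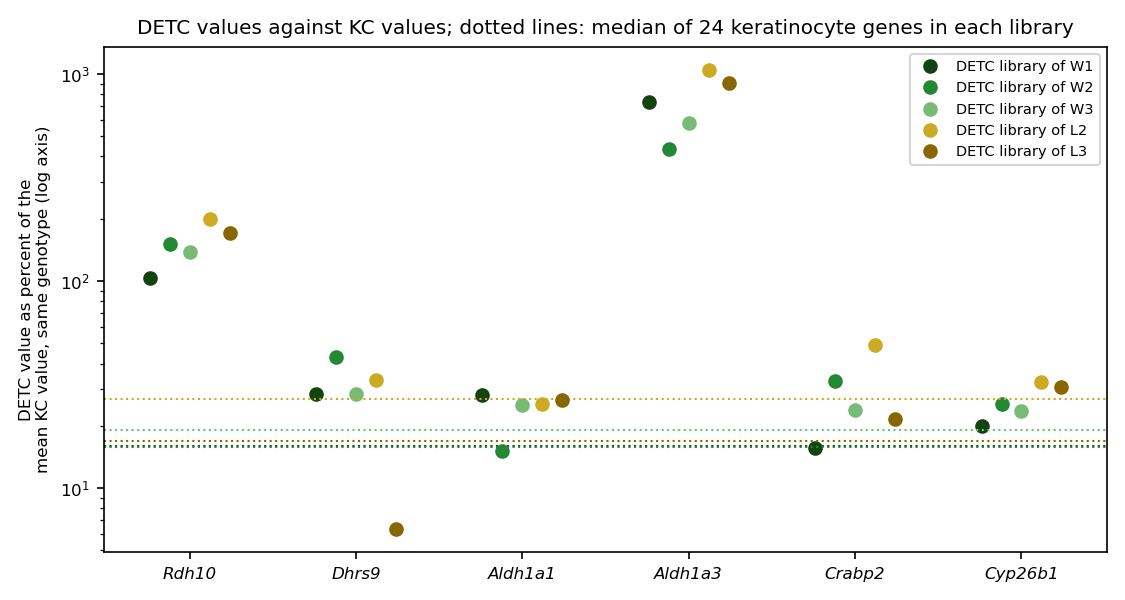
Value of each gene in each DETC library as a percent of its mean in KCs of the same genotype (log axis), with 1 colour per library. Dotted lines give the median percent of 24 keratinocyte genes in that library (15.8% to 27.0%), and all Rdh10 and Aldh1a3 points lie above 100%.

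CYP26A1 and CYP26B1 carry out the same reaction, and Cyp26a1 is a textbook gene switched on by retinoic acid, as is Rarb, which encodes a retinoic acid receptor. Cyp26a1 had 0 reads in all 11 libraries, which allows up to 3 reads in each, and Rarb had 8 reads in all. Both fell below the filter, so in these libraries Cyp26b1 was the Cyp26 gene with more than a trace of reads, Cyp26c1 having 1 read in all. To show how the upstream sequences of these genes differ, the letters of the retinoic acid response element were searched for, as a direct repeat of the half-site AGGTCA or its variants (AGTTCA and GGGTCA and also GGTTCA) with a spacer of 5 or 2 bases on either strand. Promoters from RefSeq (GRCm38.p6), 250 bases before to 50 after each start, were available for 6 of the 9 members. None was available for Rdh10, Aldh1a3 or Crabp2. A repeat with spacer 5 was found in 0.0974% of all 32851 promoters and one with spacer 2 in 0.268%. Among 75 promoters of 52 listed retinoid genes, 2 held the spacer 5 repeat, those of Cyp26a1 and Rarb, and none of the 10 member promoters held either. Cyp26a1 and Rarb were listed because they are known retinoic acid target genes, so their match is no test. A single half-site, by contrast, occurs in 43.7% of all promoters. The sequences are shown 5′ to 3′, with the half-sites of the repeat in capitals, for Cyp26b1 (chr6:84593909-84594060, minus strand) and Cyp26a1 (chr19:37697558-37697797, plus strand) up to the first annotated exon, and for Rarb (chr14:16575507-16575535, minus strand) around the repeat alone. In Cyp26a1 the repeat reads on the opposite strand and begins 32 bases before the start, and in Rarb it begins 53 bases before it. The match is a description of the letters and not of binding.
Cyp26b1: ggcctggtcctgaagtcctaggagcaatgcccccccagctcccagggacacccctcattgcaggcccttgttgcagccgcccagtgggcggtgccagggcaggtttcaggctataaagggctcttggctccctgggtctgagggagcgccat
Cyp26a1: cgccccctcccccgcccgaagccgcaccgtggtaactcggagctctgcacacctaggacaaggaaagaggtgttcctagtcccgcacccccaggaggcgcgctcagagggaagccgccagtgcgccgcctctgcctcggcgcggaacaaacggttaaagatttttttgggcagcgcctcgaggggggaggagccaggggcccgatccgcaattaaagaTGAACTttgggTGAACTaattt
Rarb: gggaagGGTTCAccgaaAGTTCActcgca

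Around the members, 49 further genes of uptake, oxidation, breakdown and nuclear reception were examined, of which 32 were tested. In KCs, none was higher and 3 were lower in LC-/- mice, where 5.37% of all tested genes were higher and 1.85% lower. The median over the 32 was -0.12, against -0.01 for all tested genes. Adh7, an alcohol dehydrogenase that oxidises retinol, had 1102, 779 and 952 normalized counts in WT and 501, 437 and 546 in LC-/- KCs, with no overlap. Its log2 difference was -0.92 (SE 0.152, adjusted p = 0.0356, limma). The retinoic acid receptor gene Rarg fell from 4647, 4417 and 4070 in WT to 3182, 3431 and 3424 in LC-/- KCs (log2 difference -0.39, SE 0.0628, adjusted p = 0.0346). Its partner Rxra fell from 3999, 3543 and 3624 to 2669, 2996 and 2672 (-0.42, SE 0.0711, adjusted p = 0.0371). The groups were apart in each of the 3 genes, and the calls were close to the threshold. Without any 1 of the 6 libraries the calls of Adh7 (adjusted p up to 0.110) and Rarg (adjusted p up to 0.117) were lost, and that of Rxra remained only without L2. Adh7 overlaps an antisense gene, whose reads cannot be told apart from its own where strand was not used.

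In DETCs the same 32 genes gave 1 call, near the 3.56% called among all tested genes, and their median was -0.11 against 0.02. Ppard, which encodes a nuclear receptor that can also respond to retinoic acid, rose from 817, 831 and 948 normalized counts in WT to 1586 and 1180 in LC-/- DETCs (log2 difference 0.66, SE 0.139, adjusted p = 0.0457, limma). L2 was the higher of the LC-/- libraries, and without it the difference was 0.45 (adjusted p = 0.193). The call was also lost without W1, W2 or W3 (adjusted p = 0.113, 0.141 and 0.0922). Rarg and Rxra differed by -0.19 and 0.14 in DETCs and were not called, and the test of the difference between cell types called neither (adjusted p = 0.603 and 0.112). Adh7 was also lower in LC-/- DETCs, by -0.79 (95% interval -1.31 to -0.26), and was not called (adjusted p = 0.109, limma). Its effects in the 2 cell types differed by 0.13 (adjusted p = 0.903, limma). Mean Adh7 was 136.9 in WT and 78.1 in LC-/- DETC libraries, against 944.2 and 494.8 in KCs. Keratinocyte marker transcripts stood at a median of 15.8% to 27.0% of their KC level in DETC libraries. The part of keratinocyte transcripts in the DETC difference of Adh7 was not tested.

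Of 18 known retinoic acid target genes, 13 were tested. In KCs, Nrip1, a nuclear receptor corepressor, rose from 3496, 3385 and 3450 normalized counts in WT to 4971, 4650 and 5985 in LC-/- (0.59, SE 0.0987, adjusted p = 0.0370, limma). Hoxb4, a homeobox gene, fell from 103.5, 102.0 and 97.7 to 49.6, 65.1 and 66.2 (-0.75, SE 0.145, adjusted p = 0.0468). In DETCs, Itga4, an integrin chain of lymphocyte homing, fell from 316.5, 220.3 and 343.3 to 126.2 and 141.5 (-1.10, SE 0.204, adjusted p = 0.0327). Itga4 overlaps Cerkl on the opposite strand. In the same DETC libraries the summed normalized count of 9 genes of dermal gamma delta T17 cells was 4010 to 5154 in WT and 3468 to 3694 in LC-/-, and none of the 9 was at 0. In KC libraries that sum was 2913 to 3177 in WT and 2305 to 2606 in LC-/-, with Il17a and Ccr6 at 0 in both. In DETC libraries the sum of 15 Langerhans cell genes was 5090 to 5621 in WT and 4115 to 4382 in LC-/-, with Ltc4s at 0 in LC-/-. In KC libraries it was 4324 to 4700 in WT and 4054 to 4583 in LC-/-. Cd207, Ltc4s, Ctss, Lyz2 and Itgax were at 0 in LC-/- KCs, so neither sum is specific to the cells it is named for. The part of T17 and Langerhans cells in the DETC differences was not tested. The other 11 tested targets in KCs and 12 in DETCs were not called, where 7.23% and 3.56% of all tested genes were. The medians over the 13 were -0.18 in KCs and 0.02 in DETCs. The Nrip1 call was lost when any 1 KC library except L2 was left out (adjusted p up to 0.122), that of Hoxb4 without any 1 of the 6 (up to 0.148), and that of Itga4 without DETC W1, W3 or L2 (0.0912, 0.103 and 0.129). The Hoxb4 call was also lost under quantile normalization (adjusted p = 0.0716) and in 1 fit over all libraries (0.0773), that of Ppard under quantile normalization (0.0704), and those of Ppard, Itga4 and Rxra without the mean-variance trend (0.202, 0.180 and 0.0513). No gene of the 49 tested over all lists passed the test of the difference between cell types.

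**Figure D4:**
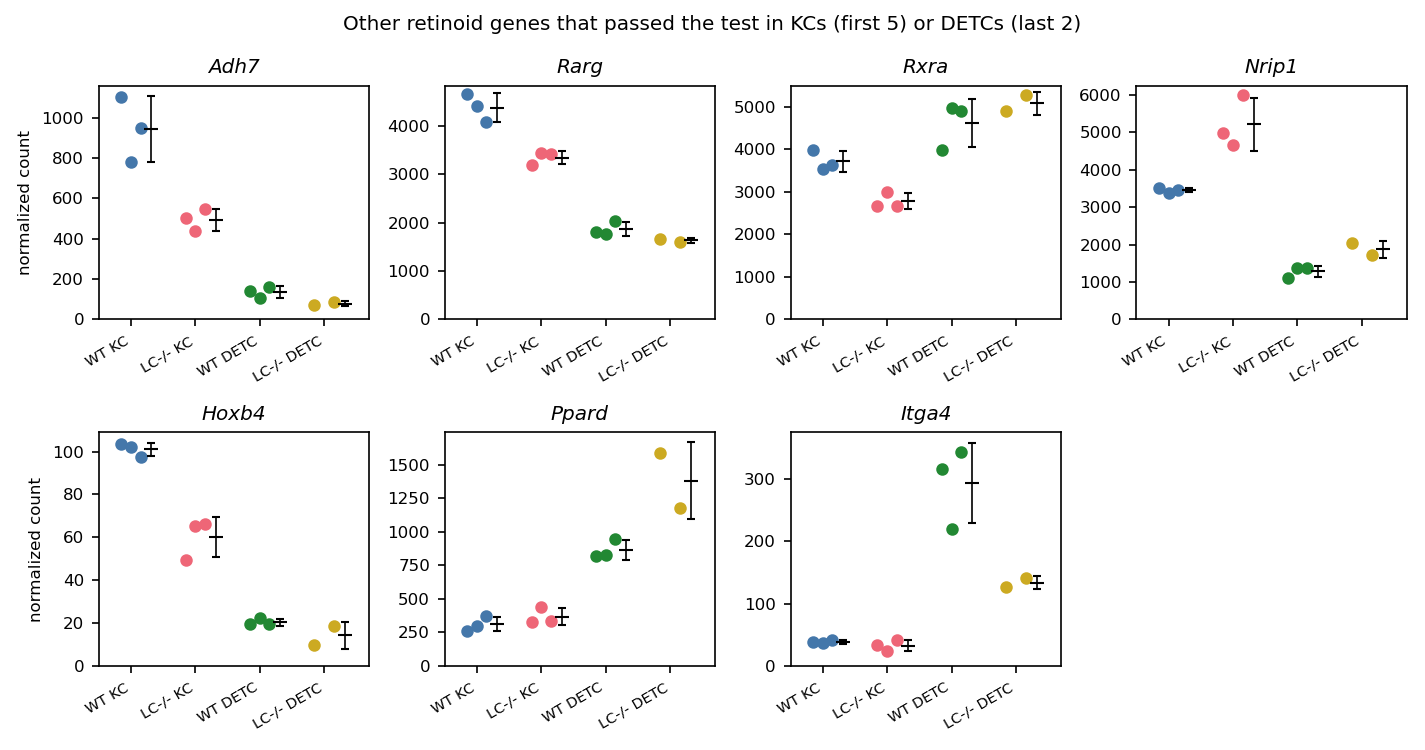
Normalized counts (vertical axes, each from 0) of the 7 other listed retinoid genes called for LC-/- against WT, with 1 point per library and mean and SD beside (n = 3, and 2 for LC-/- DETCs). WT and LC-/- KC points do not overlap for Adh7, Rarg, Rxra, Nrip1 and Hoxb4, nor do the DETC points for Ppard and Itga4.

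Between WT DETCs and WT KCs, 7 of the 32 pathway genes were higher and 19 lower, and 3 of the 13 targets were higher and 10 lower, where 41% of all tested genes were higher and 35.1% lower. Of the retinoic acid receptor genes, Rarg and Rara divided as Aldh1a1 and Aldh1a3 did. Among their partners, Rxra was slightly higher in DETCs (0.31, adjusted p = 0.0178, limma), a call lost in 6 of 16 alternatives. Rxrb was not called (-0.06, adjusted p = 0.487). Rarg was lower in DETCs (-1.23, adjusted p = 5.61e-07, limma) and Rara higher (1.65, adjusted p = 4.10e-08), with 39.5 ± 1.82 RPKM (SD, n = 3) in WT DETCs and 14.6 ± 0.220 in WT KCs. Per length, Rarg, Hbegf and Rxra were the most abundant listed genes in WT KCs, at 75.1 ± 5.14, 57.8 ± 2.27 and 49.8 ± 2.41 RPKM. In WT DETCs they were Dgat1, which can esterify retinol, Rxra and Rara, at 60.2 ± 23.8, 53.0 ± 4.25 and 39.5 ± 1.82 RPKM. Crabp2, the leading member in KCs, thus stood below Rarg and Rxra there. Under quantile normalization the median of all genes between WT DETCs and WT KCs moved from 0.07 to -0.24, and the calls of the 5 members kept their direction.

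The genes most like each member over the 11 libraries were found by Pearson's r of log2 values among 14038 other genes. This is a description, since all points share the split between KCs and DETCs. For Cyp26b1 they were Rdh13 (r = 0.996), Tnfrsf1a (0.995) and Mamld1 (0.995), and for Crabp2 Fbxo28 (0.980), Rhov (0.978) and Spink5 (0.977). Aldh1a1 was most like Cep55 (0.988), Aldh3a1 (0.985) and Cbr4 (0.984), and Dhrs9 most like Mcf2l (0.977), Gprin2 (0.958) and Nagk (0.948). Aldh1a3 was most like Muc1 (0.980), Cd320 (0.976) and Fam216a (0.976), and Rdh10 most like Spast (0.964), Cmtm6 (0.962) and Rnf10 (0.960). Rdh13, a mitochondrial retinol dehydrogenase relative, was on the pathway list.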

How the data were processed

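The deposited table holds, for 11 libraries, signal values that the authors made by trimming with cutadapt, aligning paired reads to GRCm38 with hisat2, counting per gene with featureCounts and dividing by the DESeq2 median-of-ratios size factor. Versions and the strand setting are not given in the sources used here. Multiplied by the size factors, 100% of the values came within 0.01 of a whole read, and these reads were used where a count model was run.

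Genes with a CPM above 1 in at least 2 libraries were tested (14419) with limma 3.58.1 in R 4.3.3, with a mean-variance trend, on log2(normalized count + 1). LC-/- and WT were compared within each cell type, the 2 effects with an interaction over all libraries, and WT DETCs with WT KCs. The scripts were tested on simulated data. Alternatives were other pseudocounts, filters and normalizations, edgeR 4.0.16 and DESeq2 1.42.0 on the recovered reads, a fit without the trend, a fit over all libraries, a replicate block, and each library left out. Of the table's IDs, 52403 of 52550 matched GENCODE vM21. Depth allows a share of up to 3 reads per library where none was seen, which covers counting error only. Named genes were the 9 members, listed genes called in KCs, in DETCs or between them or among the 3 most abundant per length, and the 3 genes most like each member. The members and lists were chosen with earlier results of these data known.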

Additional observations from a re-analysis of the deposited data

How the results depend on the processing

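None of the 6 tested members was called for LC-/- against WT, in KCs, in DETCs or in the difference of effects, under any alternative. Differences near 0 changed sign. For Aldh1a3 in KCs the log2 difference was 0.0034 with a pseudocount of 0.5 and 0.052 under quantile normalization. With each library left out it ranged from -0.36 to 0.30 for Aldh1a3, -0.055 to 0.067 for Rdh10, -0.15 to 0.20 for Crabp2 and -0.095 to 0.072 for Cyp26b1 in KCs, from -0.41 to 0.012 for Aldh1a1 and -0.089 to 1.08 for Crabp2 in DETCs, and from -1.63 to 0.063 for Dhrs9 and -0.11 to 1.06 for Crabp2 in the difference of effects. Over all genes, the 1042 calls in KCs became 1742 with a minimum mean of 10, 1617 with no filter, 633 under quantile normalization, 1783 with edgeR and 1752 with DESeq2, and 5 to 721 with 1 library left out. The 514 calls in DETCs became 263 under quantile normalization (178 higher and 85 lower, against 452 and 62), 1079 with DESeq2, 959 in 1 fit over all libraries and 35 to 590 with 1 library left out. A limma fit that leaves out the trend gave 0 DETC calls, with 2407 at an unadjusted p under 0.05. The 115 calls for the difference became 22 without the trend, 312 with DESeq2 and 32 to 138 with 1 library left out, and the cause was not tested. With the sample number as a replicate block there were 18 calls for the difference, and 10873 against 10965 for WT DETCs against WT KCs, with no member's call changed. The deviations of same-numbered KC and DETC libraries correlated at -0.059 to 0.16, above 0.1 in 3 of 5 pairs, and no label says that the number marks a mouse, so the fits without the block were kept and whether the libraries are paired remains unknown. In the comparison of WT cell types 5 members kept their calls under all 16 alternatives, and Rdh10 was called in 1 of 16. Listed genes called for LC-/- sit near the threshold in the main limma fit, and each was also called with edgeR and with DESeq2. With 2 to 3 libraries a group, each call was lost when 1 or another library was left out. In KCs leaving out 1 library also lowered the calls over all genes. Stra6, Lrat and Aldh1a2 are limited by depth.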
